A study of Mus musculus with 8 samples.

Results

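The Notch signalling genes of the mouse small intestine examined here are 9 genes named by symbol: the receptors *Notch1*, *Notch2* and *Notch3*, the ligands *Dll1*, *Dll4* and *Jag1*, the DNA-binding effector *Rbpj*, and the target or related genes *Hes1* and *Hes6*. They were named by symbol with no cut on their values in these tables, although earlier results of these data were known. Of the 9, 8 were among the 11554 genes listed for crypts and the 12701 genes listed for villi. *Notch3* was not among the listed genes and was not analysed. The lowest mean of a listed gene over its libraries was 48.4 normalized counts in crypts and 8.82 in villi, as the authors' tables give it.

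Epithelium of crypts and villi came from Ctrl and *Gli1-Ptgs* cKO mice on the C57BL/6 background, collected 1 month after tamoxifen. In cKO mice, tamoxifen-induced Cre in Gli1-expressing mesenchymal cells removes *Ptgs1* and *Ptgs2*, the genes of the prostaglandin-making enzymes COX1 and COX2, so that the deletion lies outside the epithelium measured here. The sample labels give the Ctrl mice as WT and name Gli1-CreERT2; Rosa26-tdTomato mice, whereas the paper describes Ctrl mice with both floxed genes and no Cre. The mouse age is not stated for these samples. Each group of each tissue had 2 libraries, described as biological replicates, but the Ctrl villus columns were identical for every gene and were counted as 1 library. That left 2 Ctrl and 2 cKO crypt libraries, and 1 Ctrl and 2 cKO villus libraries. What the comparison asks is whether loss of mesenchymal COX went with altered Notch pathway RNA in the epithelium.

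Reads on listed genes numbered 16853017 to 21121714 per crypt library and 13477600 to 15751024 per villus library. *Ptgs1* stood at 365 and 164 normalized counts in Ctrl crypts and at 178 and 199 in cKO crypts, so the groups overlapped, and *Ptgs2* and *Gli1* were not listed. A normalized count is a gene's read count divided by a scaling factor for its library. Epithelial markers were present throughout, with *Epcam* at 24666 to 38540 normalized counts in crypts and 9196 to 14360 in villi. Of the fibroblast markers, 10 of 10 were listed in crypts, at a summed 462 to 927 reads per 1000000 reads on listed genes (RPM) in Ctrl and 516 to 778 in cKO libraries, with none at 0. Of 14 endothelial markers only *Esam* was listed in crypts, at 281 and 140 normalized counts in Ctrl and 219 and 132 in cKO crypts, and *Pecam1* and *Cdh5* were not. Of 10 pericyte and smooth muscle markers only *Pdgfrb* was listed there, at 68.4 and 72.9 in Ctrl and 76.6 and 72.6 in cKO crypts, and *Rgs5* was not. The part of non-epithelial cells in the values was not tested.

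Notch signalling works between touching cells. A Delta or Jagged ligand on one cell opens the receptor on its neighbour to cleavage by ADAM proteases and by γ-secretase, and the freed intracellular part joins RBPJ in the nucleus to switch on *Hes* genes. In intestinal crypts, cells that receive the signal express *Hes1*, which represses *Atoh1*, and take the absorptive path or stay as progenitors, whereas cells that escape it express *Atoh1* and Delta ligands and become secretory. In bulk RNA, fewer cells of a type and less RNA per cell cannot be told apart.

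None of the 8 Notch signalling genes differed between cKO and Ctrl crypts beyond the spread between libraries. Limma-trend with Benjamini-Hochberg adjustment gave each of them an adjusted p of 1.00, where 0 of 11554 genes (0%) were called at an adjusted p under 0.05. At an unadjusted p under 0.05, 0 of the 8 passed, against 73 of 11554 genes (0.632%). The study's threshold, an unadjusted p under 0.01 with a log2 fold change over 1, called 0 of the 8 as well, against 0.173% of genes called higher and 0.00866% called lower. With 2 libraries in each group, the smallest two-sided p of an exact permutation test is 0.333.

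**Figure D1:**
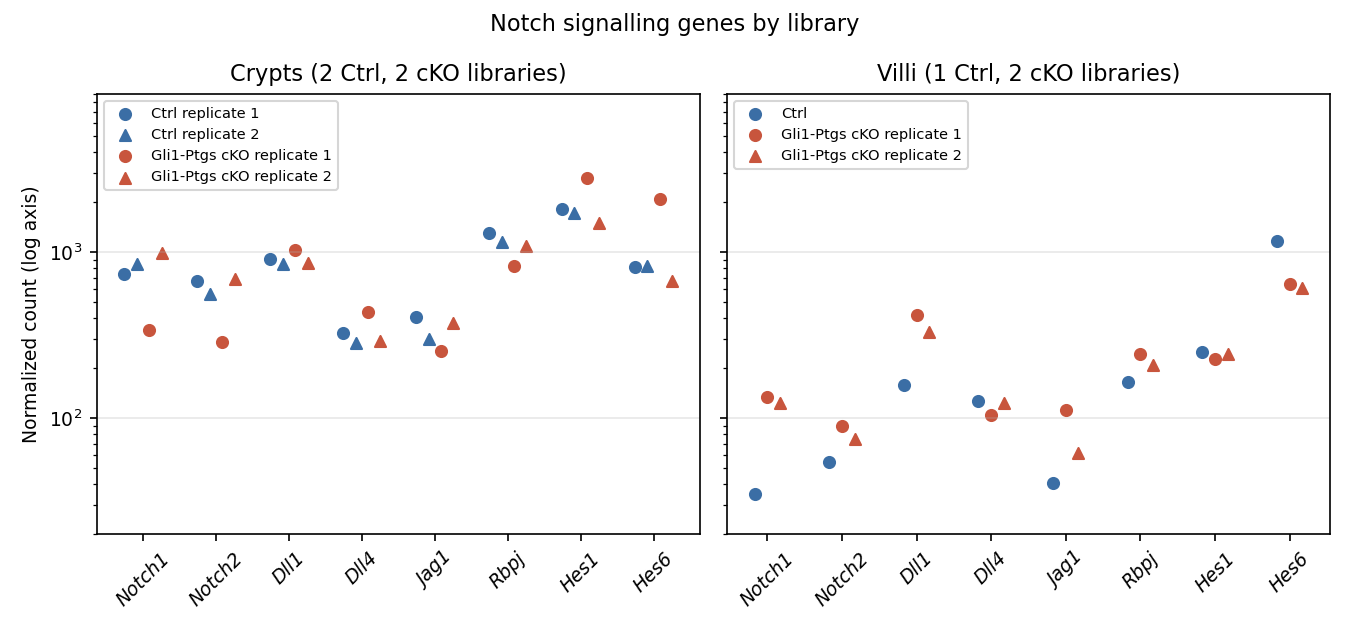
Normalized counts (log axis) of the 8 listed Notch signalling genes in each crypt library (left) and each villus library (right); blue points are Ctrl, red points are *Gli1-Ptgs* cKO, and circles and triangles are replicates 1 and 2. In crypts cKO replicate 1 departs from the other 3 libraries for *Notch1*, *Notch2*, *Hes1* and *Hes6*, and in villi *Notch1* and *Dll1* lie above the single Ctrl library in both cKO libraries.

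The receptors were low in 1 cKO crypt library only. *Notch1*, the main receptor of crypt progenitors (chr2:26457903-26516663 of GRCm38, minus strand), read 739 and 847 normalized counts in Ctrl crypts and 340 and 984 in cKO crypts. Its cKO libraries fell on either side of both Ctrl libraries. The log2 fold change, cKO against Ctrl on the log2(normalized count + 1) scale, was −0.45 ± 0.49 (SE; 95% interval −1.61 to 0.71). *Notch2*, its paralogue (chr3:98013527-98150361, plus strand), read 665 and 561 in Ctrl and 286 and 691 in cKO crypts, with the same split. Its log2 fold change was −0.46 ± 0.44 (SE; 95% interval −1.50 to 0.58).

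The ligands stayed closer to Ctrl. *Dll1*, a ligand carried by secretory precursors (chr17:15367354-15376872, minus strand), read 908 and 844 normalized counts in Ctrl crypts and 1029 and 860 in cKO crypts. Its log2 fold change was 0.10 ± 0.25 (SE), with a 95% interval of −0.49 to 0.70. *Dll4*, the ligand that acts with *Dll1* in crypts (chr2:119325784-119335962, plus strand), read 325 and 284 in Ctrl and 434 and 289 in cKO crypts, with a log2 fold change of 0.22 ± 0.33 (SE; 95% interval −0.57 to 1.01). *Dll4* shares 411 bases with *Gm14207* on the opposite strand, which read 43.1 and 32.4 in Ctrl and 88.1 and 30.2 in cKO crypts. Without a stated strand setting, reads of the pair cannot be told apart there. *Jag1*, a Jagged ligand (chr2:137081456-137116644, minus strand), read 407 and 297 in Ctrl and 255 and 371 in cKO crypts, with a log2 fold change of −0.18 ± 0.35 (SE; 95% interval −0.998 to 0.65). For all 3 ligands the groups overlapped.

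*Hes1* and *Hes6* were the highest in cKO crypt replicate 1 and the lowest in cKO crypt replicate 2. *Hes1*, the classical Notch target and repressor of secretory fate (chr16:30064384-30067796, plus strand), read 1823 and 1726 normalized counts in Ctrl crypts and 2796 and 1485 in cKO crypts. Its log2 fold change was 0.20 ± 0.34 (SE; 95% interval −0.60 to 1.01). *Hes6*, a HES family member known to oppose HES1 (chr1:91411483-91414038, minus strand), read 811 and 822 in Ctrl and 2086 and 666 in cKO crypts. With 0.53 ± 0.51 (SE) it had the largest log2 fold change of the 8, and its 95% interval of −0.68 to 1.74 was the widest.

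*Rbpj*, the DNA-binding partner of all Notch receptors (chr5:53466152-53657362, plus strand), was the only one of the 8 whose crypt groups did not overlap. It read 1306 and 1154 normalized counts in Ctrl and 826 and 1084 in cKO crypts. The log2 fold change was −0.38 ± 0.26 (SE; 95% interval −1.0 to 0.25). Over all crypt genes, 11.3% had both cKO libraries below both Ctrl libraries and 9.73% had both above, so 1 of 8 stood near that background. Without cKO crypt replicate 2 the log2 fold change of *Rbpj* was −0.57, and without cKO crypt replicate 1 it was −0.18. The other 7 genes overlapped, as did 79% of all genes.

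The difference of each cKO crypt library from Ctrl followed transcript length. In cKO replicate 1 the short transcripts of *Hes6* and *Hes1* stood 1.35 and 0.66 log2 units above the Ctrl mean, and the long transcripts of *Notch1* and *Notch2* stood at −1.22 and −1.09. In cKO replicate 2 the order ran the other way, from −0.29 for *Hes6* and −0.26 for *Hes1* to 0.18 for *Notch2* and 0.31 for *Notch1*. For 7 of the 8 genes, all but *Rbpj*, the cKO libraries lay on opposite sides of the Ctrl mean. Spearman's rho of the difference with the longest annotated transcript was −0.905 over the 8 genes and −0.657 over 11546 genes in cKO replicate 1, and 0.857 and 0.311 in cKO replicate 2. These are descriptions across genes, which share their libraries and are not independent.

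Subtracting the length curve from each library moved the *Hes1* log2 fold change from 0.20 to −0.03 and that of *Notch1* from −0.45 to −0.16. *Hes6* went from 0.53 to 0.32 and *Rbpj* from −0.38 to −0.23. The median absolute log2 difference between libraries of a group was 0.187 for the 8 genes in Ctrl crypts (0.194 for all genes) and 0.748 in cKO crypts (0.497 for all genes). Without cKO crypt replicate 2, so that replicate 1 alone was set against Ctrl, 4 of the 8 passed at an adjusted p under 0.05 in limma-trend, against 17.2% of all genes. These were *Notch1* at −1.22, *Notch2* at −1.09, *Hes1* at 0.66 and *Hes6* at 1.35 on the log2 scale. Without cKO crypt replicate 1, 0 of the 8 passed, and all except *Rbpj* changed sign.

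**Figure D2:**
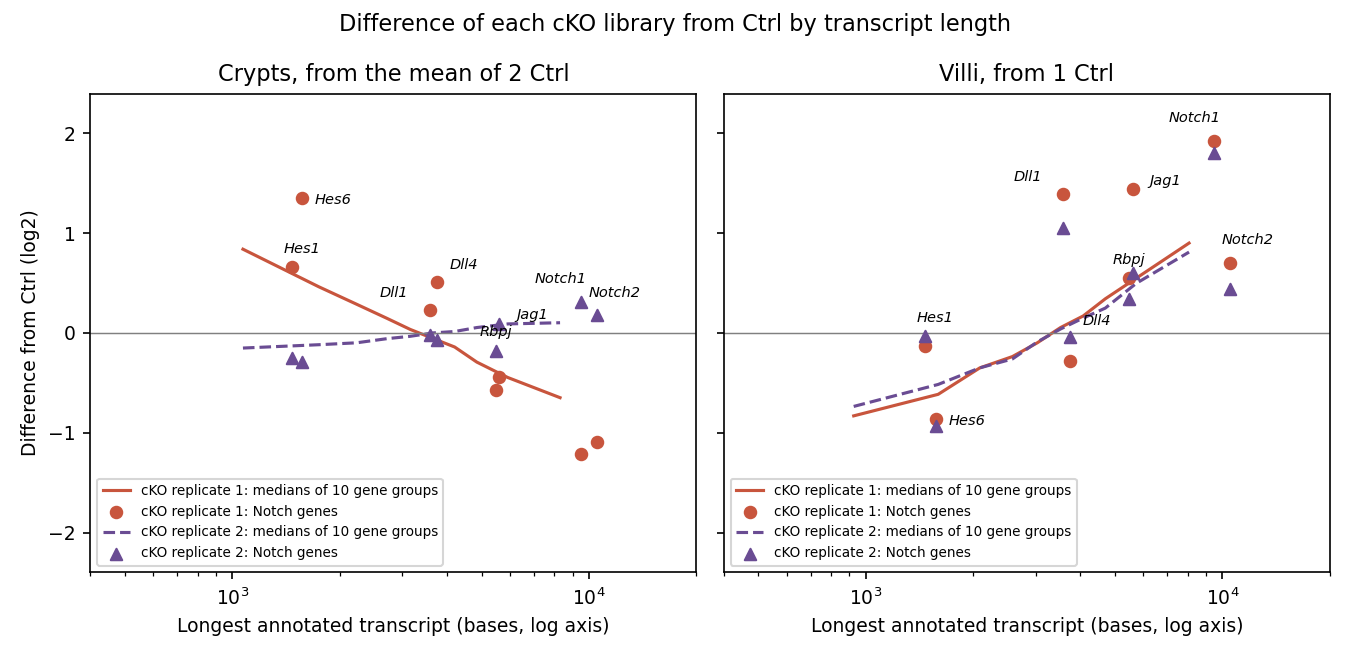
Difference from Ctrl (log2) of each cKO library in crypts (left, from the mean of 2 Ctrl libraries) and villi (right, from 1 Ctrl library) against the longest annotated transcript in bases (log axis). Points are the 8 Notch signalling genes and lines join the medians of 10 equal groups of genes by length; in crypts the line of cKO replicate 1 runs from 0.84 in the shortest group to −0.65 in the longest, and in villi both lines rise with length.

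In villi *Notch1* and *Dll1* were higher in both cKO libraries than in the Ctrl library by more than 1 log2 unit. No villus test was run, and the values are given as differences from the 1 Ctrl library. Counting intervals cover counting error only. *Notch1* read 34.8 normalized counts in Ctrl villi and 135 and 124 in cKO villi, a mean log2 difference of 1.86. Its reads were few, 30 in Ctrl (exact Poisson 95% interval 20.2 to 42.8) against 176 and 128. *Dll1* read 158 in Ctrl and 416 and 328 in cKO villi, a mean log2 difference of 1.22, from 136, 544 and 340 reads. With 2 of 8 genes past that fold upward, the background was 10.6% of 12701 genes. Downward, 0 of 8 passed it, against 6.4% of genes.

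The other members moved less. *Jag1* read 40.5 in Ctrl and 112 and 61.8 in cKO villi, so that only cKO replicate 1 passed the fold. *Notch2* read 54.4 against 89.5 and 74.4, and *Rbpj* 166 against 242 and 210. *Hes6* lay below Ctrl in both cKO libraries, at 1166 against 641 and 609 normalized counts, a mean log2 difference of −0.90. *Hes1* stayed within 0.13 log2 units of Ctrl, at 249 against 227 and 243, and *Dll4* read 126 against 104 and 123. In all, 5 of the 8 were above Ctrl in both cKO libraries and 3 were below in the authors' scaling (*Notch2*, *Hes1*, *Dll4* and *Rbpj* changed sign on average under another scaling or length correction, given next), where 43.7% and 44.2% of all villus genes were. The cKO villus libraries lay close together, with a median absolute log2 difference of 0.222 for the 8 genes and 0.194 for all genes.

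Transcript length moved with these differences too. Spearman's rho with length over 12692 genes was 0.543 in cKO villus replicate 1 and 0.507 in cKO villus replicate 2, and over the 8 genes 0.643 and 0.571. After the length curve was subtracted, *Dll1* kept a mean log2 difference of 1.16 and *Notch1* had 0.92, so that *Dll1* alone of the 8 remained past the fold in both libraries, where 6.8% of genes were. *Dll1* lay at the edge there, with 1.00 in cKO villus replicate 2. The correction left *Hes6* at −0.38, brought *Rbpj* to −0.02, and turned the sign of *Notch2*, to −0.44, and of *Hes1*, to 0.47. Scaling by library size alone moved the median of all villus genes to 0.42, and relative to zero it turned *Dll4* to 0.27 and *Hes1* to 0.35, both below that median.

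The summed stem cell markers were also higher in both cKO villus libraries. The 9 of 9 listed, none at 0, summed to 3245 normalized counts in the Ctrl villus library and to 5433 and 4426 in the cKO villus libraries, or 192 against 451 and 340 RPM. Of the 9 genes, 7 were above Ctrl in both cKO libraries and 1 was below, where 43.7% and 44.2% of all villus genes were. *Lgr5* read 13.9 against 64.2 and 30.9 normalized counts, whereas *Smoc2* read 415 against 333 and 251. Paneth cell markers, 11 of 12 listed and none at 0, summed to 10695 normalized counts in Ctrl and to 13971 and 10135 in cKO villi, on both sides of Ctrl, although in RPM both cKO libraries were higher, at 1160 and 779 against 633. In crypts the stem cell list held 5080 to 5855 RPM. Immune markers, 11 of 11 listed and none at 0, stood at 1512 RPM in Ctrl villi and at 658 and 647 in cKO villi. Of these genes, 7 were below Ctrl in both cKO libraries and 2 above, where 44.2% and 43.7% of all villus genes were. *Cd74* read 12383 against 2843 and 1952 normalized counts, whereas *Ptprc*, a general leukocyte gene, read 200 against 608 and 722. The part of these cells in the *Notch1* and *Dll1* values was not tested.

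Between tissues, the Notch signalling genes other than *Hes6* were higher in crypts than in villi. Over the 11227 genes of both tables, 7 of the 8 were higher in every crypt library than in every villus library in RPM over the shared genes, as were 52.3% of those genes. *Notch1* led, with a Ctrl crypt level of 42.5 RPM against 2.06 in Ctrl villi, a ratio of 20.6 that exceeded the ratio of 97.9% of genes. The ratios of *Notch2*, *Jag1*, *Rbpj*, *Hes1* and *Dll1* were 10.2, 7.86, 6.71, 6.44 and 5.03, and that of *Dll4* was 2.18. The median gene had a ratio of 2.27, and 54.2% of genes, like the 7 named, had a Ctrl crypt mean at least 2 times the Ctrl villus level. *Hes6* was the exception at 0.632, with 44.2 and 43.3 RPM in Ctrl crypts and 69.3 in Ctrl villi. These ratios rest on 1 Ctrl villus library and on tables normalized separately by the authors, and the ratio rose with transcript length (Spearman's rho 0.448 over 11219 genes and 0.810 over the 8). In cKO mice the ratio was 3.32 for *Notch1* and 1.60 for *Dll1*, and 5.72 for *Hes1*. The cKO crypt libraries behind the *Notch1* ratio differed, at 16.6 and 52.4 RPM. Ratios of other genes also differed between genotypes. That of the stem cell marker *Slc12a2* was 79.8 in Ctrl and 16.6 in cKO mice, and that of the Paneth cell marker *Defa24* was 23.6 and 27.9. No cKO ratio over all genes was taken as a background. The cKO ratio of *Hes6* was 1.37, its crypt libraries lying on both sides of its villus libraries.

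**Figure D3:**
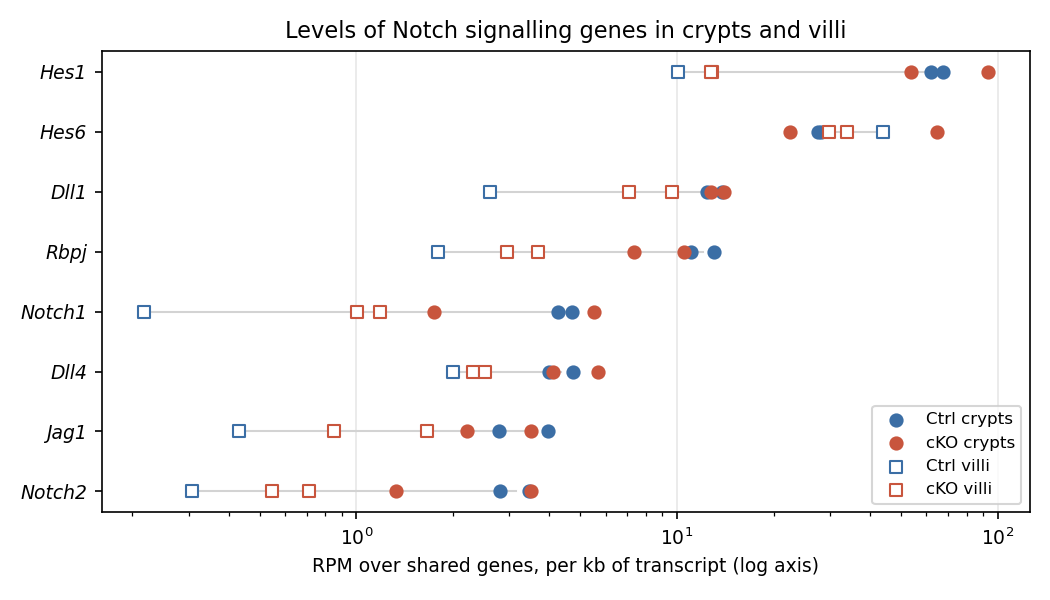
Level of each Notch signalling gene in reads per 1000000 on shared genes (RPM) per kb of its longest transcript (log axis), with filled circles for crypt and open squares for villus libraries, blue for Ctrl and red for cKO; grey lines join the Ctrl crypt mean to the Ctrl villus library. Crypt circles lie to the right of villus squares for 7 of the 8 genes, and *Hes6* is the exception.

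Per kb of transcript, *Hes1* was the most abundant of the 8 in Ctrl crypts, at 67.8 and 61.9 RPM per kb, followed by *Hes6* at 28.1 and 27.5. *Dll1* at 13.8 and 12.4 and *Rbpj* at 13.0 and 11.1 overlapped as neighbours. *Dll4* at 4.74 and 3.99 overlapped with *Notch1* at 4.25 and 4.70, and *Jag1* at 3.96 and 2.79 with *Notch2* at 3.46 and 2.81. In the Ctrl villus library the order began with *Hes6* at 44.0, then *Hes1* at 10.1 and *Dll1* at 2.61, and *Notch1* came last at 0.218.

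Among the other genes of the pathway no gene passed the test in crypts. The list held 85 genes by role, of which 66 were listed, and 0 of the 66 reached an unadjusted p under 0.05 in limma-trend (background 0.632%). Both cKO libraries were above both Ctrl libraries for 7 genes, below for 7, and overlapping for 52, near the 9.73%, 11.3% and 79% of all genes. The median log2 fold change was −0.05, against −0.01 for all genes. Of the other ligands and receptors, *Jag2* read 66.5 and 89.1 normalized counts in Ctrl and 152 and 110 in cKO crypts, a log2 fold change of 0.74 ± 0.45 (SE). *Adam10*, the protease that makes the first ligand-dependent cut, read 3534 and 4036 against 2903 and 3983 (log2 fold change −0.15). *Lfng*, a glycosyltransferase that tunes the receptors' ligand choice, read 390 and 375 against 533 and 405 (0.28), and its relative *Rfng* 679 and 681 against 657 and 519 (−0.22).

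Before length correction, ubiquitin ligases of the pathway list went both ways in crypts. *Mib1* read 2232 and 2260 in Ctrl and 1778 and 2196 in cKO crypts, while *Mib2* read 399 and 401 against 688 and 498 (log2 fold change 0.55) and *Neurl3* 4251 and 4235 against 6015 and 4262. After length correction the log2 fold changes were 0.12 for *Mib1*, 0.57 for *Mib2* and 0.19 for *Neurl3*. Of the nuclear cofactors, *Rita1*, which carries RBPJ out of the nucleus, had the largest value of the list, 90.9 and 75.6 against 242 and 116 (log2 fold change 1.01 ± 0.49, SE). The corepressors *Tle1* and *Tle4* had 0.14 and −0.25, and *Cir1*, an RBPJ corepressor, had −0.22. Of the other targets, *Nrarp*, a feedback inhibitor, read 200 and 234 against 264 and 207 with overlapping groups, *Sox9* had a log2 fold change of 0.20, and *Hey1* was not listed.

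**Figure D4:**
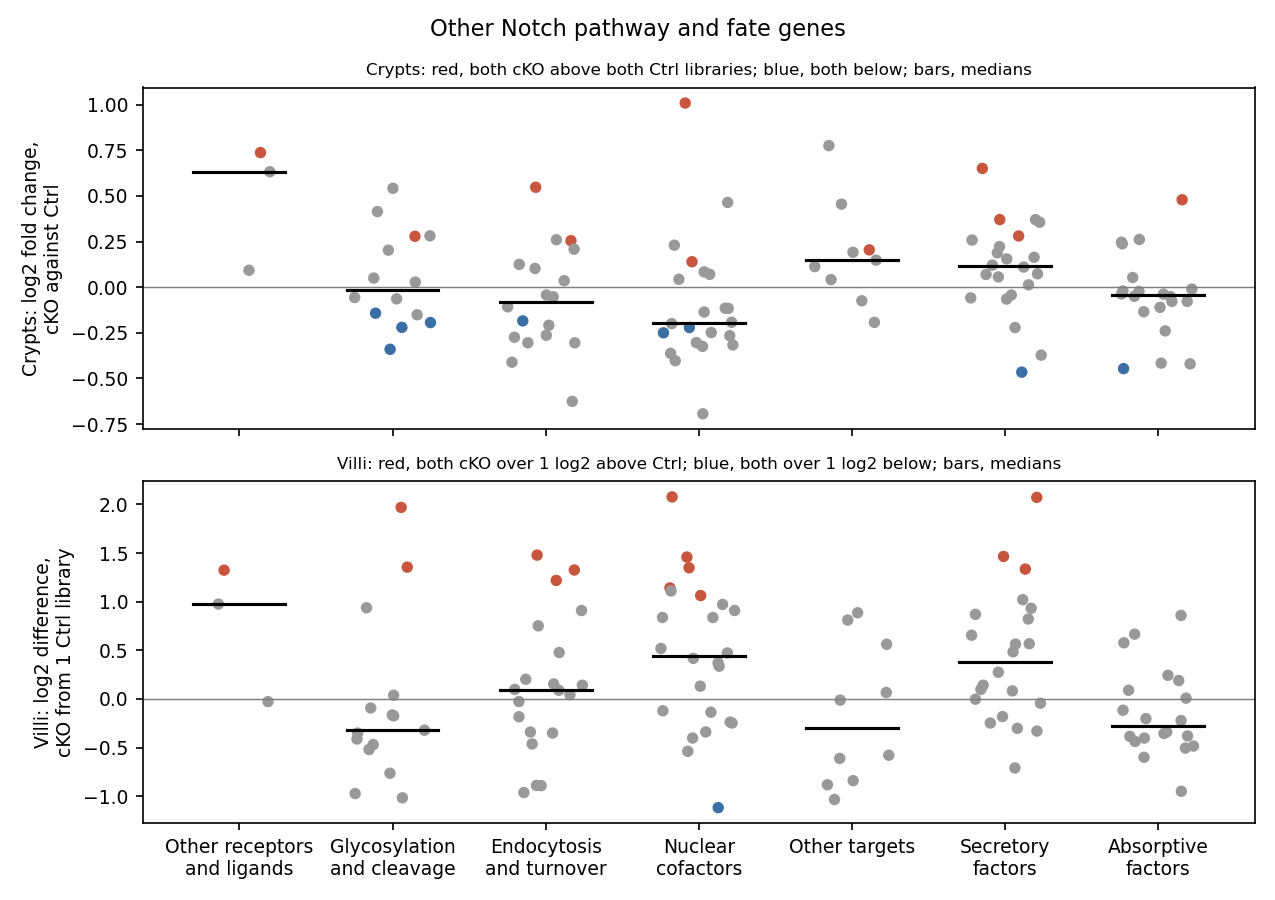
Log2 fold change in crypts (top) and mean log2 difference from the Ctrl library in villi (bottom) of the other Notch pathway genes by role and of secretory and absorptive fate factors; each point is a gene and bars are medians. In crypts the highest value is 1.01 (*Rita1*) and coloured genes, whose groups do not overlap, lie on both sides of 0; in villi 11 pathway genes and 3 secretory factors lie over 1 log2 unit above Ctrl in both cKO libraries and 1 pathway gene lies below.

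In villi 72 of the 85 pathway genes were listed, and 11 of them were past the fold upward in both cKO libraries and 1 downward, against 10.6% and 6.4% of all villus genes. Their median log2 difference was 0.05. Among them *Jag2* had 1.32 and *Mib1* 1.48. After length correction 3 genes were past the fold upward and 1 downward, against 6.8% and 3.23% of genes. Named here because of their values, these were *Adam17*, a protease related to *Adam10* (69.5 normalized counts against 258 and 293), the corepressor *Tle2* (4.63 against 20.6 and 25.1) and the shared target *Myc* (82.2 against 152 and 154) upward, and *Dtx2*, a ubiquitin ligase, downward (178 against 120 and 76.3). The *Tle2* value rested on very few reads in the Ctrl villus library, where 1 read equals 1.16 normalized counts.

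The listed secretory and absorptive fate factors showed no difference in crypts that passed the test. *Atoh1*, which HES1 represses, read 499 and 563 normalized counts in Ctrl and 627 and 555 in cKO crypts, a log2 fold change of 0.15 ± 0.26 (SE). In villi it read 109 against 97.1 and 149. Of 25 secretory factors, 22 were listed in crypts. The median of their log2 fold changes was 0.12, and 3 were above and 1 below Ctrl without overlap, where 9.73% and 11.3% of all genes were. These were *Rfx6* at 0.65, *Foxa3* at 0.37 and *Klf4* at 0.28 above, and *Cbfa2t3* at −0.47. Of 20 absorptive factors, 20 were listed, with a median of −0.04, and *Creb3l3*, at 0.48, was above Ctrl without overlap. *Hnf4a*, a main enterocyte regulator, read 15222 and 17512 against 12973 and 18450.

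In villi 3 of 22 secretory factors were past the fold upward and 0 downward, against 10.6% and 6.4% of all genes. After length correction 4 were past it upward, the same 3 and *Nkx2-2*, against 6.8% of genes. The 3 were *Rfx6* and *Pax6*, enteroendocrine regulators, and *Pou2f3*, the tuft cell regulator. *Rfx6* read 11.6 normalized counts in Ctrl villi and 55.8 and 48.3 in cKO villi, *Pax6* 16.2 against 40.5 and 44.4, and *Pou2f3* 10.4 against 22.9 and 40.6. All 3 rested on a low Ctrl level in 1 library. Of 20 absorptive factors, 0 were past the fold in either direction, against 10.6% of all genes upward and 6.4% downward. In both cKO libraries 13 were below Ctrl and 6 above, where 44.2% and 43.7% of all genes were.

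Promoter sequences of 3 members are shown because *Rbpj* was the gene whose crypt groups did not overlap and *Notch1* and *Dll1* passed the fold in villi. Each runs from 250 bases before to 50 bases after a RefSeq start of GRCm38.p6, 5′ to 3′ on the gene's strand, and 8 of the 9 genes have at least 1 entry. *Hes1* has none. Both strands were searched for TGGGAA, the core of the RBPJ site (TTCCCA on the other strand), and for CACNAG, the N box bound by HES proteins (CTNGTG on the other strand). Capitals mark TGGGAA or TTCCCA in *Rbpj*, and the N box in *Notch1* and *Dll1*.
*Rbpj*, chr5:53590096-53590395, plus strand: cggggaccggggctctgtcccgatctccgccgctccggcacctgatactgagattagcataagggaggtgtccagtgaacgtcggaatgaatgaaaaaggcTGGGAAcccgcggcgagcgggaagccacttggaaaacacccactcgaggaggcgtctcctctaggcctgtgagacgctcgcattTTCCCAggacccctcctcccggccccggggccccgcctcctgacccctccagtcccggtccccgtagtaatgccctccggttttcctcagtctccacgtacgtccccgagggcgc
*Notch1*, chr2:26503773-26504072, minus strand: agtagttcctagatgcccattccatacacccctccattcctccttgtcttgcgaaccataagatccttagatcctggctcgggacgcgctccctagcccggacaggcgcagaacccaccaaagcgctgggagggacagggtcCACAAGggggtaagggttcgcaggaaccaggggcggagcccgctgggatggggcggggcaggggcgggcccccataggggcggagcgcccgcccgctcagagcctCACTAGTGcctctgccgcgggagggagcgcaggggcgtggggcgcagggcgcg
*Dll1*, chr17:15376883-15377182, minus strand: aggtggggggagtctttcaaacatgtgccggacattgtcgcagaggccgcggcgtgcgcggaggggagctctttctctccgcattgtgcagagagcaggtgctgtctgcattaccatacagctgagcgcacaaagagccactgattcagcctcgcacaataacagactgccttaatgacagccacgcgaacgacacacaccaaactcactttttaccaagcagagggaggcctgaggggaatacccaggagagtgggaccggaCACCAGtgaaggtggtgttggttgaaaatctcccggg
RefSeq lists 2 starts each for *Rbpj* and *Dll1*, and the entry with more matches is shown for each. The *Rbpj* promoter shown holds 2 matches to the RBPJ core, which begin 149 and 65 bases before the start. Among 32851 RefSeq promoters of the same length, 25.6% hold at least 1 such match and 3.79% hold at least 2. Neither the *Notch1* nor the *Dll1* promoter shown holds one. *Notch1* has 3 N box matches, of which the last 2 share bases on opposite strands across the start, and *Dll1* has 1, 13 bases after the start, where 42.5% of promoters hold at least 1. These shares count single promoters, whereas the *Rbpj* and *Dll1* entries shown were chosen of 2 for having more matches, so they are not like for like. The other *Rbpj* entry overlaps the one shown and holds 1 RBPJ match. It is the same site as the match shown 65 bases before the start. The other *Dll1* entry (chr17:15375774-15376073) holds 0 matches to either motif. A match is a run of letters and not a bound site.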

How the data were processed

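The authors sequenced RNA from crypts and villi of both genotypes. Reads were aligned to mm10 with STAR and compared with DESeq2 by the authors. The values in each deposited table are a signal, namely read counts per gene that the authors scaled by DESeq2 size factors. The deposited log2 fold changes, their standard errors and test statistics (scores), p-values and adjusted p-values are the authors' own comparison and were not used. The counting program, strand setting and annotation are not given in the sources used here. Labels and methods name different RNA and library kits. Columns of other samples numbered 0.

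The members and lists were chosen with earlier results of these data known. Genes were named as members, as the 2 highest and 2 lowest non-overlapping genes of each list, or from a short fixed set, and some genes of that rule are not reported here. The 4 crypt libraries were fitted with limma-trend in limma 3.58.1 under R 4.3.3 on log2(normalized count + 1), mean at least 1, without a block. Villi, with 1 Ctrl library, were given as differences. The value of 1 read, found from the spacing of values, gave the depth, and 100% of values were whole within 0.0001. It was not used for a count test. Transcript length was the longest GENCODE M21 transcript, and its curve a lowess with a span of 0.3 over 11546 crypt and 12692 villus genes. Levels between tissues used RPM over 11227 shared genes. The fit was tested on simulated counts. The replicate libraries are not said to come from separate mice, so p-values measure the spread between these libraries. Figures were drawn with matplotlib 3.10.9.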

Additional observations from a re-analysis of the deposited data

Results flagged for a closer look

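*Rbpj* was flagged because its direction differed between tissues. In crypts both cKO libraries were below both Ctrl libraries, with a log2 fold change of −0.38, and in villi both cKO libraries were above the Ctrl library, by 0.44 log2 units on average. The difference between tissues was not tested, and the villus values rest on 1 Ctrl library. After length correction the values were −0.23 in crypts and −0.02 in villi.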

How the results depend on the processing

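In crypts the number of genes at an adjusted p under 0.05 was 0, with 34 under the replicate block and 0 to 1987 when 1 library was left out, the highest without cKO replicate 2. Genes higher at the study's threshold went from 20 to 63 with the block and ranged from 15 to 593 with a library left out. Genes lower went from 1 to 15 with the block, 4 with library size scaling, 4 with length correction and 6 with length correction and the block, and ranged from 3 to 288. Notch signalling genes at an adjusted p under 0.05 numbered 0 to 4, and at an unadjusted p under 0.05 numbered 0 to 5, with a library left out. Other pathway genes at an unadjusted p under 0.05 numbered 3 with the block, 1 with length correction, 2 with both, and 0 to 28 with a library left out. Villus members past the fold went from 2 to 1 with length correction and stood at 2 or 3 with a library left out. The cause of these changes was not tested.

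With 1 crypt library left out, log2 fold changes ranged from −1.22 to 0.31 for *Notch1*, −1.09 to 0.18 for *Notch2*, −0.025 to 0.23 for *Dll1*, −0.069 to 0.52 for *Dll4*, −0.45 to 0.094 for *Jag1*, −0.26 to 0.66 for *Hes1*, −0.29 to 1.35 for *Hes6* and −0.57 to −0.18 for *Rbpj*, the last lowest without cKO replicate 2 and highest without cKO replicate 1. *Hes1* became −0.028 with length correction, and −0.028 with length correction and the block. A lone library left in a group is assumed to vary like the others. The replicate numbers were not shown to pair the samples: with 2 pairs, the deviations of replicate 1 in Ctrl and cKO correlated at 0.247 across genes. The block changed no call among the 8 genes. The planned count tests on recovered reads were not run.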

Other observations

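The patterns most like 3 members were sought among 11226 other genes, as the root mean square difference of log2 normalized counts over the 7 libraries after centring each tissue on its mean. For *Hes1* these were *Commd3* at 0.042, *Oard1* at 0.046 and *Rrp15* at 0.047, where the median gene had 0.370. *Dll4* ranked 105 for *Hes1*, at 0.103, and the other listed members ranked from 4990 (*Hes6*) to 10986 (*Notch1*). For *Notch1* the nearest genes were *Ash1l* at 0.058, *Fyco1* at 0.084 and *Il17rd* at 0.088, against a median of 0.756. For *Dll1* they were *Ahsa2* at 0.048, *Zfp326* at 0.070 and *Tada2a* at 0.079, against a median of 0.479. The 3 genes nearest *Notch1* have longest transcripts of 7949 to 11644 bases, and *Notch1* has one of 9488 bases. Those nearest *Hes1*, of 1468 bases, have 938, 1324 and 3092 bases. Those nearest *Dll1*, of 3581 bases, have 3583, 4672 and 2151 bases. The part of length in these likenesses was not tested.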
